A study of Mus musculus with 12 samples.

Results

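The genes described here are 8 regulators of epithelial identity: the grainyhead-like transcription factors Grhl1 and Grhl2, the zinc finger factors Ovol2 and Klf5, the ETS factors Elf3 and Ehf, and the splicing proteins Esrp1 and Esrp2. They were taken by gene symbol, and all 8 were found among the 53599 genes of the count table. The set was chosen from earlier results on these same libraries, in which the levels across the stages were in view, above all the gain of Grhl2 and Esrp1 in the full stage. Their levels and fold changes are therefore a description and carry no test. All 8 passed the filter on low counts, but Grhl2, Esrp1 and Ovol2 passed it through their counts in the full and BEC libraries.

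RNA was sequenced from sorted liver cells of wild-type (WT) mice, in 12 libraries that fall into 4 groups of 3. Every group shares the same exposure. The mice received AAV8-TBG-Cre, a virus whose thyroxine-binding globulin promoter drives Cre recombinase in hepatocytes, and 1 week later were placed on 0.1% DDC, a diet that injures bile ducts, for 8 weeks. Of the EGFP+ cells, which descend from hepatocytes, the early group was Cd24- Epcam-, the intermediate group Cd24+ Epcam- and the full group Cd24+ Epcam+. The BEC group (biliary epithelial cells) was EGFP- Epcam+, which is a gate on the absence of the hepatocyte label. No group without DDC is among these samples, and strain, age and the reporter allele were not given in the sources used here. Nothing in the labels says that the replicates came from separate animals, so p-values measure the spread between these libraries, which may be technical.

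Epithelial cells hold their shape and their junctions through a network of such regulators. Grainyhead-like proteins bind and activate genes of adherens and tight junctions. Ovol2 represses Zeb1 and other factors of the mesenchymal state. Esrp proteins choose the epithelial exons of transcripts such as Fgfr2 and Cd44. Elf3 and Ehf belong to the epithelium-specific branch of the ETS family, and Klf5 is a Kruppel-like factor of growing epithelia such as the gut crypt. Hepatocytes are epithelial cells too, yet Grhl2 is known in the liver as a factor of bile duct cells.

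Libraries held between 15112893 and 19731887 counts. The defining markers of the labelled cells were present. The summed level of 6 hepatocyte markers, Alb among them, was between 92528 and 96313 CPM (counts scaled to the library total with TMM factors) in early libraries and between 1928 and 2548 in BEC. Of 7 biliary markers, Krt19 and Cftr were at or under the floor in early, and none was in the other groups. The floor is 3 counts, which corresponds to between 0.128 and 0.273 CPM. The share of counts from mitochondrial genes moved with the stages: it was 5.45% to 11.4% in early, 3.99% to 4.75% in intermediate, 2.20% to 2.48% in full and 2.58% to 3.43% in BEC, without overlap. Its part in the differences described was not tested.

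The 8 genes appeared at different stages. In early cells 3 of them were above the floor in every library (Grhl1, Esrp2 and Elf3), 4 were at or under it in every library (Grhl2, Esrp1, Ovol2 and Klf5), and Ehf was above it in 1 library. In intermediate cells 6 were above it, as Ehf, Klf5 and Ovol2 had joined, and Grhl2 and Esrp1 were still at 0 or 1 counts. In full and in BEC all 8 were above it in every library. Levels are relative to the total of a bulk library, so fewer cells that carry a transcript and less of it per cell cannot be told apart.

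**Figure D1:**
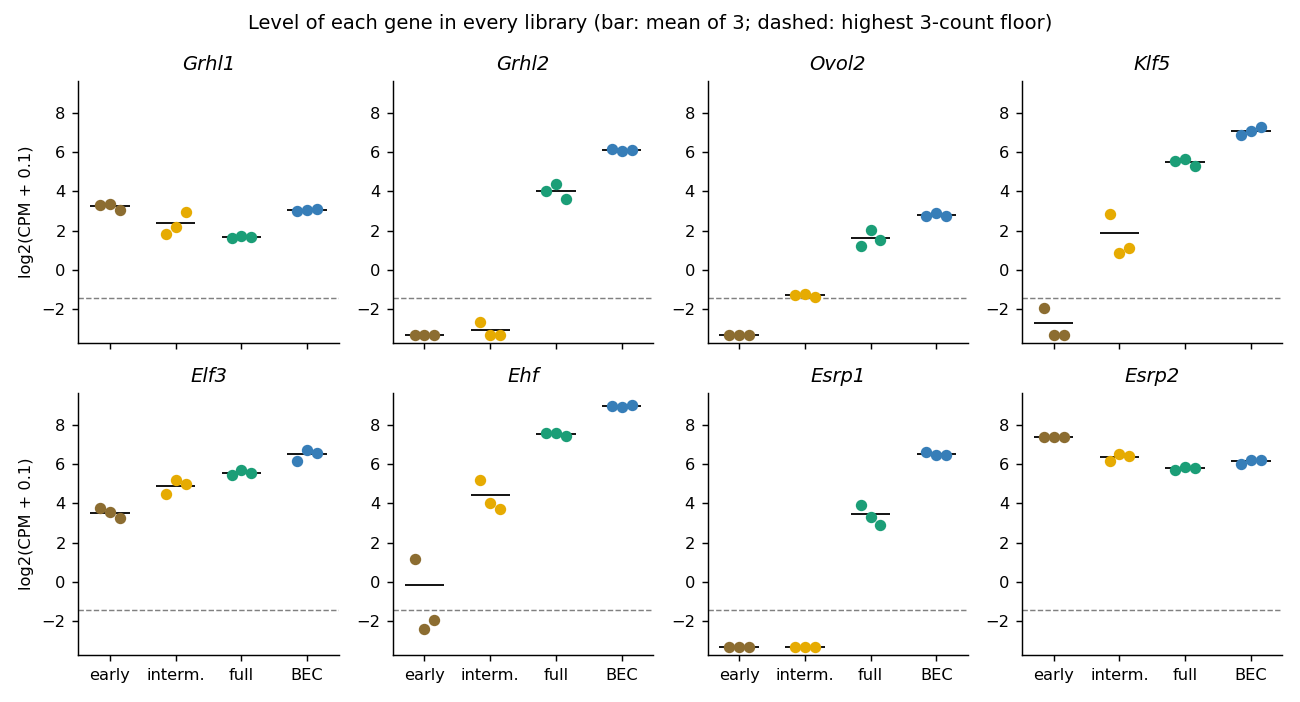
Level of each of the 8 genes, as log2(CPM + 0.1), in every library of the 4 stages; points are libraries, bars the mean CPM of 3 and the dashed line the highest floor of 3 counts. Grhl2 and Esrp1 lie under the floor in all 6 early and intermediate libraries and above it in all 6 full and BEC libraries, while Esrp2 and Grhl1 are present throughout.

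Grhl2, the grainyhead-like factor of duct epithelium, had 0 counts in each early library. It had 1, 0 and 0 counts in intermediate replicates 1, 2 and 3. Levels in full were 16.3, 20.6 and 12.1 CPM, and those in BEC were 72.0, 65.2 and 69.1 CPM. The gene was thus at the floor in all 6 libraries of the first stages, and full and BEC did not overlap. The mean in full, 16.3 ± 4.22 CPM, was at least 86.5-fold above the intermediate floor per library. BEC, at 68.7 ± 3.40 CPM, exceeded full by 2.07 on the log2 scale (SE 0.18, n = 3 each), so that full cells held 23.7% of the BEC level. Gm16136, a transcript annotated on the opposite strand within Grhl2, had at most 1 count in the first 6 libraries, between 15 and 31 in full and between 83 and 129 in BEC. Whether counting used strand was not stated, so reads of this pair cannot be told apart.

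Grhl1, the relative of Grhl2, took another course. Early libraries had 9.89, 10.1 and 8.09 CPM and intermediate libraries 3.46, 4.44 and 7.64 CPM. Full libraries had 2.94, 3.17 and 3.15 CPM and BEC libraries 7.80, 8.29 and 8.54 CPM. Grhl1 was therefore lowest in full, and its early and BEC libraries overlapped. The log2 differences were -0.85 (SE 0.24) from early to intermediate, -0.75 (SE 0.25) from intermediate to full and 1.41 (SE 0.24) from full to BEC. Scaled by total counts only, the first difference was -0.19, early and intermediate overlapped, intermediate and full overlapped, and BEC lay above early at 9.89 ± 0.484 against 6.17 ± 0.639 (SD, n = 3). The minimum in full against early and BEC was present on either scale.

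In full and BEC, Ovol2, the repressor of mesenchymal factors, was the least abundant of the genes gained. It had 0 counts in every early library. Intermediate libraries had 5, 6 and 5 counts, which correspond to 0.314, 0.329 and 0.283 CPM. These 16 reads were the first trace of the gene, at least 1.13-fold above the early floor. Full libraries had 2.21, 3.92 and 2.80 CPM and BEC libraries 6.55, 7.27 and 6.58 CPM. No groups overlapped: full exceeded intermediate by 3.24 (SE 0.34) and BEC exceeded full by 1.19 (SE 0.25) on the log2 scale.

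Elf3 was the member of the ETS pair that early cells already expressed. Its level was 13.4, 11.6 and 9.39 CPM in early and 22.0, 35.8 and 31.1 CPM in intermediate. It was 42.8, 51.6 and 46.5 CPM in full and 70.4, 104 and 95.1 CPM in BEC. Each stage lay above the one before without overlap. The log2 steps were 1.37 (SE 0.20), 0.66 (SE 0.18) and 0.94 (SE 0.18), and early cells held 12.8% of the BEC level. With total counts only the first step was 2.04.

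Ehf, the second ETS factor, had the highest level per kilobase of the 8 in full and BEC. Early replicates 1, 2 and 3 had 27, 1 and 2 counts, so 1 library alone carried the early level of 0.796 ± 1.16 CPM. Intermediate libraries had 35.8, 16.2 and 13.2 CPM, full libraries 193, 188 and 173 CPM and BEC libraries 491, 482 and 508 CPM. All 4 stages were separate. The first step was 4.70 on the log2 scale (SE 0.56), and without early replicate 1 the intermediate mean was at least 79.6-fold above the floor. The next steps were 3.10 (SE 0.38) and 1.42 (SE 0.35). The biliary genes Krt7, Krt19, Cftr and Epcam had 5, 1, 1 and 8 counts in early replicate 1, against 3, 1, 1 and 9 in replicate 2 and 3, 2, 0 and 4 in replicate 3. These counts are at or near the floor, and the part of duct transcripts in the Ehf count of that library was not tested.

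Klf5 resembled Ehf at a lower level. Early libraries had 2, 0 and 0 counts and intermediate libraries 112, 31 and 36 counts. The intermediate levels were 7.04, 1.70 and 2.04 CPM, at least 13.2-fold above the early floor, or 6.85-fold without intermediate replicate 1. Full libraries had 46.5, 49.9 and 39.5 CPM and BEC libraries 118, 133 and 151 CPM. Intermediate replicate 1 was the highest of its group for both Klf5 and Ehf, and also for Epcam (26.7 CPM, against 17.4 and 12.4) and Krt7 (5.85, against 3.40 and 1.08), though not for Krt19 (2.77, against 2.96 in replicate 2). Full exceeded intermediate by 3.68 (SE 0.36), which became 4.60 without that library, and BEC exceeded full by 1.57 (SE 0.29). The part of these duct transcripts in the level of Klf5 and Ehf in that library was not tested.

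Promoter windows are shown to set the start regions of Elf3 and Ovol2, both higher in BEC than in early, beside that of Grhl1, whose early and BEC libraries overlapped. RefSeq windows of 300 bases, from 250 before to 50 after the annotated start, were found for 3 of the 8 genes by symbol (Elf3, Grhl1 and Ovol2), which set the choice. Grhl2, Esrp1, Esrp2, Ehf and Klf5 had no entry. Each is given 5′ to 3′ on the strand of the gene in build GRCm38.p6, and matches to any of 5 motifs are in capitals. The windows are chr1:135258423-135258722 on the minus strand for Elf3, chr12:24572037-24572336 on the plus strand for Grhl1 (the first of 2 listed) and chr2:144331313-144331612 on the minus strand for Ovol2.
Elf3: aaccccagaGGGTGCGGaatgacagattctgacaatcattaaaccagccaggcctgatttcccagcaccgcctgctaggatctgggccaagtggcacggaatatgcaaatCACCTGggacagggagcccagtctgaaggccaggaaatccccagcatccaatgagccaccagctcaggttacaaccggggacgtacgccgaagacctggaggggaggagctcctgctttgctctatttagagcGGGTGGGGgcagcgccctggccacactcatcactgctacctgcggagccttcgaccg
Grhl1: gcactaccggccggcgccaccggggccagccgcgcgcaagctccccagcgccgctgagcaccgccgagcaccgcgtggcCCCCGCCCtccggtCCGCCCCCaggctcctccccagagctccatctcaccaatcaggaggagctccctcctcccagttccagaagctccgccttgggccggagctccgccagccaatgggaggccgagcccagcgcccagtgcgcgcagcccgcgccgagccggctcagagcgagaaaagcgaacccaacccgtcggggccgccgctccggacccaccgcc
Ovol2: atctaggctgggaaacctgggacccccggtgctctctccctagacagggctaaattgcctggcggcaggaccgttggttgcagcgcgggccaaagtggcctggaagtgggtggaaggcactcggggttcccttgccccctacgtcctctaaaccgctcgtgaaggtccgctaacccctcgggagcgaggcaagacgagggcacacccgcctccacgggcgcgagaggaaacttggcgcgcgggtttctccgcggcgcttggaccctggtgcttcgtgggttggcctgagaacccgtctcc

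Motifs were searched on both strands, and a match is a description of letters, not a site. The KLF motif CCNCNCCC matched Elf3 from positions -241 and -7 and Grhl1 from positions -171 and -157, counted from the start site. It is present in 49.5% of all 32851 windows. The E-box CAGGTG that ZEB and SNAI factors bind matched Elf3 from position -140, and 20.2% of all windows hold it. The grainyhead motif AACCNGTT (2.09% of all windows), the ETS motif CCGGAAGT (3.89%) and the OVO-like motif CCGTTA (2.76%) matched none of the 3 windows. Their GC content was 59% for Elf3, 75.3% for Grhl1 and 65.7% for Ovol2, against a median of 52.7% over all windows.

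The splicing proteins Esrp1 and Esrp2 followed different courses. Esrp1 had 0 counts in all 3 early and all 3 intermediate libraries. Its full libraries had 15.0, 9.77 and 7.48 CPM and its BEC libraries 98.7, 88.0 and 89.1 CPM. The full mean of 10.8 ± 3.87 CPM was at least 57.0-fold above the intermediate floor, and BEC exceeded full by 3.09 on the log2 scale (SE 0.22). Full cells thus held 11.7% of the BEC level, the lowest share of the 6 genes that were gained.

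Esrp2 was the splicing protein of the early cells. It had 167, 165 and 165 CPM in early, 70.9, 89.3 and 85.7 CPM in intermediate, 52.6, 58.2 and 54.7 CPM in full and 64.0, 74.3 and 74.4 CPM in BEC. Early lay above every other group, full below every other group, and intermediate overlapped BEC. The log2 steps were -1.02 (SE 0.10), -0.57 (SE 0.10) and 0.36 (SE 0.10). With total counts only the first was -0.35, in the same direction. Nfatc3, which lies on the opposite strand and overlaps Esrp2, had between 670 and 1688 counts per library, and 1810019D21Rik, which also overlaps it, had between 98 and 363. With strand unstated, their reads cannot be told apart from those of Esrp2, which bears on its levels and on its share of the pair.

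Divided by the longest annotated transcript (3864 bases for Esrp1 and 3536 for Esrp2), the pair can be compared. Esrp1 made up 0% of the summed level per kilobase in early and intermediate. Its share was 15.1% ± 5.03 in full, and BEC had 54.3% ± 3.70 (SD, n = 3). This share is a ratio within each library and does not depend on scaling. The summed level was 46.9 ± 0.330 CPM per kilobase in early and 43.9 ± 0.243 in BEC, and was lower in intermediate, at 23.2 ± 2.76, and in full, at 18.4 ± 0.855. The sum was thus lowest in full on this scale; with total counts only, full (20.8 to 23.2) overlapped intermediate (21.1 to 26.6). Early lay above BEC with TMM factors, whereas with total counts only BEC lay above early at 52.8 ± 0.436 against 30.95 ± 0.414.

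For the grainyhead pair, Grhl2 made up 0% of the summed level per kilobase in early, at most 1.26% in an intermediate library, 78.2% ± 4.68 in full and 85.4% ± 1.05 in BEC. The transcript lengths were 4947 bases for Grhl2 and 3469 for Grhl1. The summed level was 2.70 ± 0.317 CPM per kilobase in early, 1.50 ± 0.626 in intermediate and 4.19 ± 0.857 in full, and BEC had 16.3 ± 0.631. Grhl2 was therefore the larger part from the full stage on, while Esrp1 became the larger part of its pair only in BEC among these 4 groups.

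**Figure D2:**
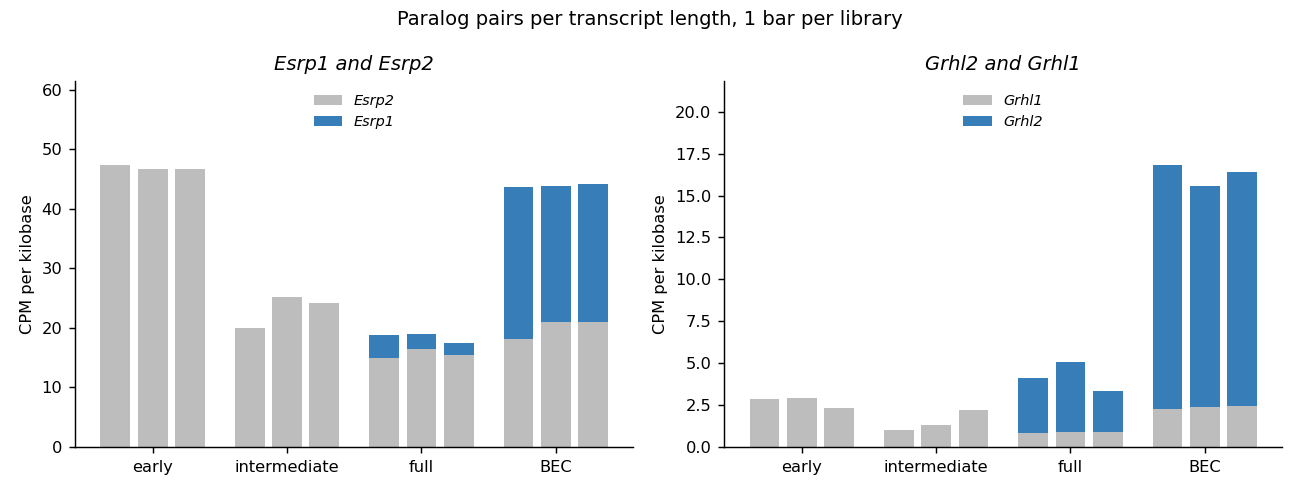
Level per kilobase of transcript of Esrp1 stacked on Esrp2 (left) and of Grhl2 stacked on Grhl1 (right), 1 bar per library. Blue parts, Esrp1 and Grhl2, are absent in early and near 0 in intermediate; Esrp1 reaches 54.3% of its pair and Grhl2 85.4% of its pair in BEC.

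Set against BEC, the 6 genes that were gained reached different levels. In full, the mean level was 52.3% of the BEC mean for Elf3, 43.8% for Ovol2, 37.5% for Ehf, 33.7% for Klf5, 23.7% for Grhl2 and 11.7% for Esrp1. In intermediate it was 32.9% for Elf3, 4.54% for Ovol2, 4.40% for Ehf and 2.68% for Klf5. Grhl2 was at 0.0305% and Esrp1 at 0% in intermediate, both under the floor, and the order of Ovol2, Ehf and Klf5 there was within the spread between libraries. For each of the 6 all BEC libraries lay above all full libraries.

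**Figure D3:**
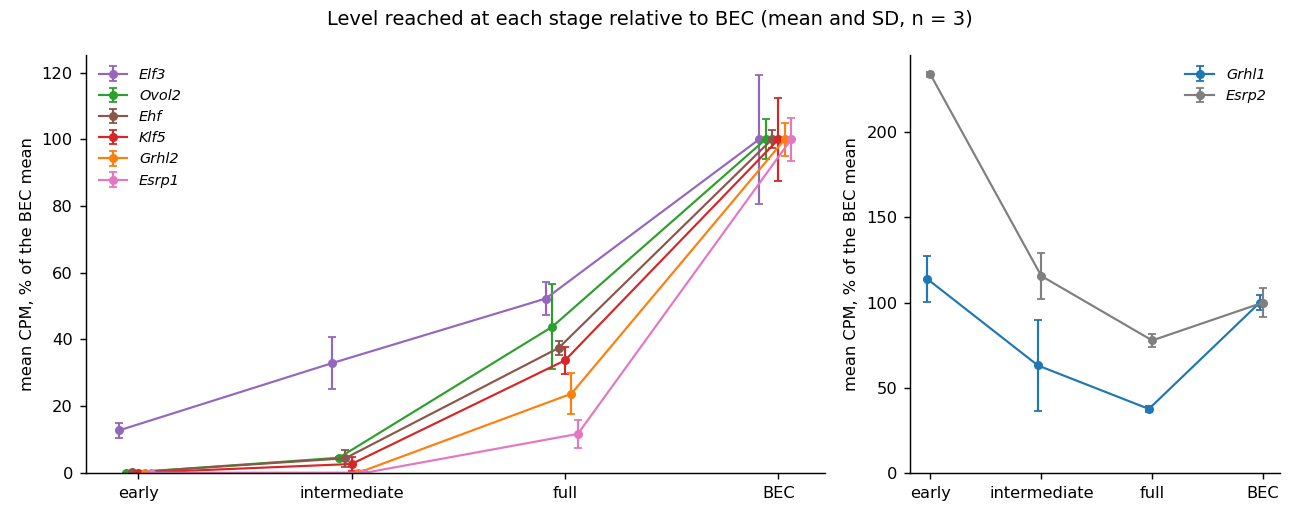
Mean level at each stage as a percentage of the BEC mean of the same gene (error bars: SD, n = 3), for the 6 genes gained (left) and for Grhl1 and Esrp2 (right). In full the gained genes lie between 11.7% (Esrp1) and 52.3% (Elf3), and Grhl1 and Esrp2 have their lowest point there.

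From early to intermediate the groups did not overlap for 6 of the 8 genes (4 higher, 2 lower). From intermediate to full they did not for 8 (6 higher, 2 lower), nor for 8 in BEC against full (8 higher). Over all 16210 genes tested the groups did not overlap for 58.7%, 55% and 39.6% of genes at these steps. Since the set was drawn up with these levels known, nothing is read from the counts. With total counts only, Grhl1 overlapped at the first 2 steps and the counts were 5, 7 and 8.

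The levels that chose the set can also be given as ratios to Ehf within each intermediate library, as a description. If each intermediate library held the genes in the ratio to Ehf that the full group shows, its Ehf counts (569, 295 and 233) would go with 50.1, 26.0 and 20.5 counts of Grhl2 and 33.2, 17.2 and 13.6 of Esrp1. The counts found were 1, 0 and 0 for Grhl2 and 0, 0 and 0 for Esrp1. For Ovol2 the same ratio gives 9.12, 4.73 and 3.73 counts, and 5, 6 and 5 were found. Klf5 had 112, 31 and 36 counts against 139, 72.2 and 57.0, and Elf3 had 350, 653 and 549 against 144, 74.8 and 59.1. Elf3 was present in early cells, which this ratio does not take into account, and nothing is read from Grhl2 and Esrp1, whose low intermediate counts were part of the choice.

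Duct markers in the same libraries were also unequal. Krt7 and Krt19, the keratins of bile ducts, reached between 0.625% and 3.40% and between 0.768% and 2.51% of their full means. Epcam, the gene of the sort marker, reached between 4.87% and 10.5%, Cftr between 3.93% and 10.1%, and Sox9 between 74.3% and 93.1%. Ehf reached 19.3%, 8.74% and 7.13% in intermediate replicates 1, 2 and 3, Klf5 15.5%, 3.75% and 4.50%, and Ovol2 10.6%, 11.0% and 9.50%. The part of a mixture of cells within the gate in these levels was not tested.

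**Figure D4:**
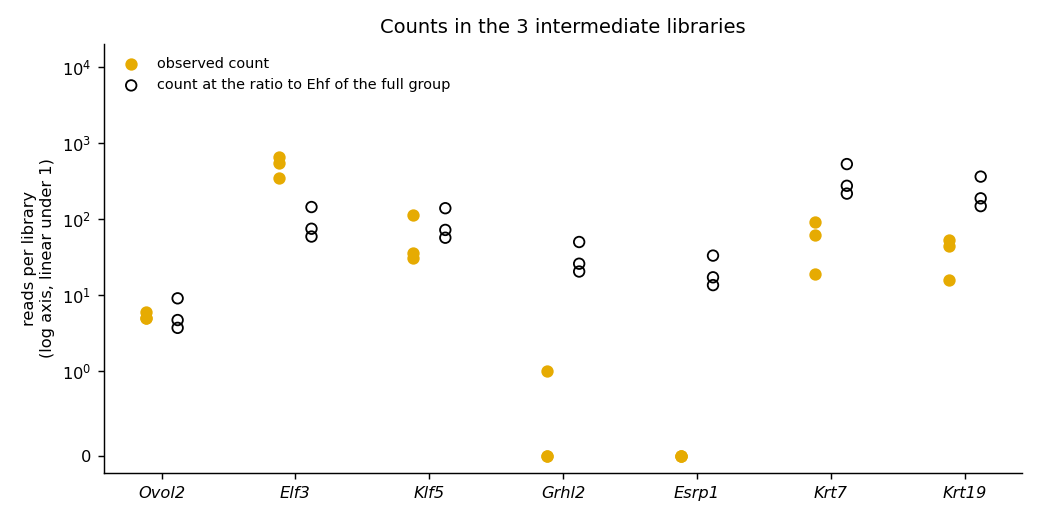
Reads per intermediate library for 5 of the regulators and for the duct keratins Krt7 and Krt19 (filled), beside the count that the library's Ehf reads would go with at the ratio of the full group (open), on a log axis that is linear under 1. Grhl2 and Esrp1 have 0 or 1 reads where the ratio gives between 13.6 and 50.1. Nothing is read from that difference, since their low intermediate counts were part of the choice of genes. Ovol2 has 5 or 6 reads where the ratio gives between 3.73 and 9.12.

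Levels can be compared between genes per kilobase of transcript. In early cells Esrp2 stood first at 46.9 CPM per kilobase, followed by Elf3 at 5.47 ± 0.952 and Grhl1 at 2.70 ± 0.317. In BEC the order was Ehf at 110 ± 2.95, Elf3 at 42.9 ± 8.34, Klf5 at 40.1 ± 5.02, Esrp1 at 23.8 ± 1.53, Esrp2 at 20.1 ± 1.70, Grhl2 at 13.9 ± 0.688, Ovol2 at 4.40 ± 0.263 and Grhl1 at 2.37 ± 0.109 (SD, n = 3). Elf3 and Klf5 did not differ beyond their spread. In full, Ehf was first at 41.4 ± 2.32, Elf3 second at 22.4 ± 2.11 and Esrp2 next at 15.6 ± 0.795, followed by Klf5 at 13.5 ± 1.58. These levels use GENCODE M21 lengths, which may differ from the gene models the reads were counted on.

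Genes whose log2 CPM followed each regulator most closely over the 12 libraries were taken by Pearson's r among 10922 or 10923 genes with at least 10 CPM in their highest group. The libraries fall into 4 groups, so r mostly reflects the group means and is given without a test. For Grhl2 they were Macc1 (0.997), Wnt7b and Mmp7 (both over 0.95), and for Esrp1 they included Macc1 and Pof1b (0.999 each). For Ehf they were Trim32, Orai2 and Lama5, for Elf3 Wnt5a, Mbp and Hr, for Klf5 Elf4, Nuak1 and Vcam1, and for Ovol2 Epn3, Krt19 and Efnb2. For Esrp2 they were C2cd2l, Ldhd and Cdv3. Grhl1 had the fewest close followers: Itprid2, at 0.946, was nearest and no gene exceeded 0.95, against 239 genes for Grhl2 and 785 for Klf5. Several names depend on the prior count of 2: with 0.5, the genes given for Ovol2 ranked 130, 104 and 82, Nuak1 and Vcam1 ranked 19 and 73 for Klf5, Wnt7b ranked 16 for Grhl2 and Lama5 ranked 9 for Ehf. Among the 8, r was 0.994 between Grhl2 and Esrp1, 0.987 between Ehf and Klf5 and -0.90 between Ehf and Esrp2.

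Genes around the 8 regulators were tested in 5 lists, which hold none of them. The lists were also drawn up with earlier results of these data known. Their counts and p-values are therefore not independent evidence. Values are from edgeR's quasi-likelihood test over all 16210 genes, with Benjamini-Hochberg adjustment and a threshold of 0.05. The share of all genes called was 54.4% from early to intermediate (the first step), 40.7% from intermediate to full (the second) and 21.3% for BEC against full, and list counts are to be read against these shares. With total counts only, the median log2 change of all genes moved from 0.06 to 0.72 at the first step and from 0.01 to 0.21 at the second, so directions are relative to the TMM scale.

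Of 20 epithelial junction and membrane genes, several of them known grainyhead targets, 11 passed at the first step (10 higher, 1 lower). At the second step 15 passed (14 higher, 1 lower), and between BEC and full 12 passed (11 higher, 1 lower). The 14 include genes at the floor in intermediate, Ap1m2 among them, which passed the filter through full and BEC. The 11 include Prom2, named after its values were seen, at 1.04 CPM in BEC and 0.147 in full. Nothing is read from these calls. Median log2 changes of the 20 genes were 0.80, 0.98 and 0.49, against 0.06, 0.01 and 0.00 over all genes tested. They were 0.48 and 0.87 at the first 2 steps when genes under the floor take their bound. Cdh1, the E-cadherin of adherens junctions, rose at each step, from 335 ± 30.2 CPM in early to 633 ± 28.5, 1106 ± 32.0 and 1502 ± 69.2 (SD, n = 3). Cldn4, a tight junction claudin, rose from 21.5 ± 10.7 to 113 ± 33.1, 231 ± 39.3 and 598 ± 108 CPM. Its second rise had an edgeR adjusted p of 0.0101, and of 0.0507 without intermediate replicate 3.

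Junction and membrane genes differed in when they appeared. Ap1m2, the sorting adaptor of the basolateral membrane, had at most 1 count in the first 6 libraries, and was at 8.25 ± 1.27 CPM in full and 62.7 ± 4.35 in BEC. The full mean was at least 43.7-fold above the intermediate floor, which is given without a p because the gene passed the filter through its full and BEC libraries. Rab25, a trafficking GTPase, had 0 or 1 counts in early and between 1 and 4 in intermediate libraries. It was at 4.93 ± 1.39 CPM in full and higher in BEC, at 47.0 ± 4.17 (log2 change 3.25, SE 0.22, edgeR adjusted p 2.69e-07). Spint1, an inhibitor of membrane proteases, rose at each step, by 3.53, 4.56 and 1.53. Marveld3, a tight junction protein, rose by 3.05 and 1.85 at the first 2 steps. Cldn6 rose most at the first, by 5.75, and Evpl by 1.86, while Prss8 fell by 0.74 at the first step and Ppl fell by 0.91 at the second.

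Of 12 mesenchymal opponents, 9 could be tested; Snai1, Twist1 and Twist2 were too low. At the first step 5 were higher and 1 lower, and at the second 1 was higher and 2 lower. Between BEC and full 7 were lower and 0 higher, with edgeR's unadjusted p under 0.05 for 9 of the 9, of which Snai3, named after its values were seen, was higher in BEC (0.608 against 0.148 CPM, log2 2.01). The count of higher genes was 0 with DESeq2 as well, and 1 with the replicate block. Medians were 0.65, -0.01 and -1.78, against 0.06, 0.01 and 0.00 over all genes tested. Vim, the mesenchymal filament vimentin, rose from 28.2 ± 2.14 to 288 ± 44.5 CPM, was at 245 ± 21.4 in full (edgeR adjusted p 0.226), and was 10.9 ± 2.52 in BEC. Zeb2, a repressor of epithelial genes, rose from 1.28 ± 0.735 to 9.70 ± 1.46 and 29.4 ± 1.47 CPM and was 3.07 ± 0.975 in BEC. Zeb1 rose from 28.9 ± 1.85 to 45.3 ± 3.05, fell to 32.6 ± 4.02 and was lower in BEC, at 9.52 ± 0.939. With total counts only its fall at the second step was -0.27 and no longer passed (edgeR adjusted p 0.0658). Snai2, a repressor of the Snail family, fell from 10.7 ± 0.973 to 3.11 ± 0.104 and 0.842 ± 0.236 CPM (edgeR adjusted p 0.000405 and 0.00108), and was 0.301 ± 0.285 in BEC (edgeR adjusted p 0.0385, libraries overlapping). Cdh2, N-cadherin, was 175 ± 16.1 CPM in early, 223 ± 10.7 in intermediate, 259 ± 8.70 in full and 33.0 ± 6.52 in BEC. Fn1, named after its values were seen, was 3352 ± 242 CPM in early, 2881 ± 385 in intermediate, 2856 ± 209 in full and 1697 ± 127 in BEC. Both were among the 7 lower in BEC, and early cells already expressed both. Full cells therefore held Zeb2 and Vim above their BEC level (log2 changes -3.26, SE 0.26, and -4.49, SE 0.17) in the same libraries in which Grhl2, Ovol2 and Esrp1 were above the floor.

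Of 12 genes whose exons Esrp proteins are known to choose, 8 were higher at the first step, 6 at the second and 2 between BEC and full, and 0 were lower at any of them. Unadjusted p was under 0.05 for 9, 6 and 3, and at the first step these included Numb, named after its values were seen, which was lower (log2 change -0.21). With the replicate block 1 gene was called lower at that step. Medians were 0.50, 0.23 and 0.06. Counts per gene give the total of a transcript and say nothing of its exons. Fgfr2, a growth factor receptor, rose from 70.5 ± 9.17 to 147 ± 7.35 and 249 ± 8.21 CPM and was 285 ± 17.1 in BEC (edgeR adjusted p 0.208). Cd44, the hyaluronan receptor, rose from 43.7 ± 19.1 to 256 ± 99.1 and 530 ± 63.0 CPM. It was 880 ± 93.2 in BEC (edgeR adjusted p 0.0864), a difference that passed in edgeR once the replicate number was a block (adjusted p 0.00306) and in DESeq2 (adjusted p 0.0427). Enah, an actin regulator, rose from 0.321 ± 0.291 to 4.59 ± 2.46, 56.5 ± 8.13 and 166 ± 3.00 CPM. Ctnnd1 and Magi1 rose at the first step, by 1.17 and 1.01.

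Among 14 other splicing regulators, 7 passed at the first step (6 higher, 1 lower), 2 at the second (both higher) and 4 between BEC and full (2 higher, 2 lower). At the second step the count was 4 with the replicate block and 8 with total counts only, under which 14 passed at the first. Medians were 0.23, 0.12 and -0.06. Celf2 rose by 2.83 at the second step, and Ptbp2 and Khdrbs1 by 1.25 and 0.96 at the first. Rbm47, a splicing protein of epithelia, was 134 ± 11.8, 137 ± 12.9, 144 ± 7.58 and 135 ± 3.52 CPM across the stages and passed at no step with TMM factors (edgeR adjusted p between 0.571 and 0.815).

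Among 27 relatives of the regulators by family, 22 were tested. At the 3 steps 13, 7 and 6 passed, of which 9, 4 and 4 were higher. The 4 higher in BEC than in full include Ovol1, which entered the test through its BEC counts. The 4 at the second step include Klf8, named after its values were seen, with 2 to 10 counts in intermediate and 15 to 31 in full. Nothing is read from these 2 calls. Medians were 0.44, -0.03 and -0.01, or 0.14 at the first step when genes under the floor take their bound. Grhl3, the remaining grainyhead-like gene, had at most 2 counts in any library, and Elf5 at most 5. Ovol1 had 0 counts in early and between 23 and 40 in BEC, and exceeded full there (1.45 ± 0.406 against 0.220 ± 0.206 CPM). It was tested only because of its BEC counts, so that difference is given without a p. Elf4, an ETS relative of Elf3 and the gene closest to Klf5, rose at each step, from 3.34 ± 0.890 to 15.6 ± 3.06, 52.8 ± 2.91 and 81.6 ± 2.05 CPM. Tfcp2l1, of the grainyhead superfamily, rose likewise, from 17.7 ± 3.49 to 69.2 ± 1.55, 146 ± 7.49 and 204 ± 9.11 CPM. Klf15, a factor of hepatocyte metabolism, fell from 222 ± 27.1 to 55.4 ± 3.39 and 15.0 ± 0.812 CPM. Klf9 fell at the second step, by 1.19, and was lower in BEC than in full (-1.48), and its first change turned from -0.56 to 0.10 with total counts only. Klf4 rose at the first step (1.09) and was higher in BEC than in full (0.91), Klf6 rose at the first (1.38), and Spdef passed at none.

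**Figure D5:**
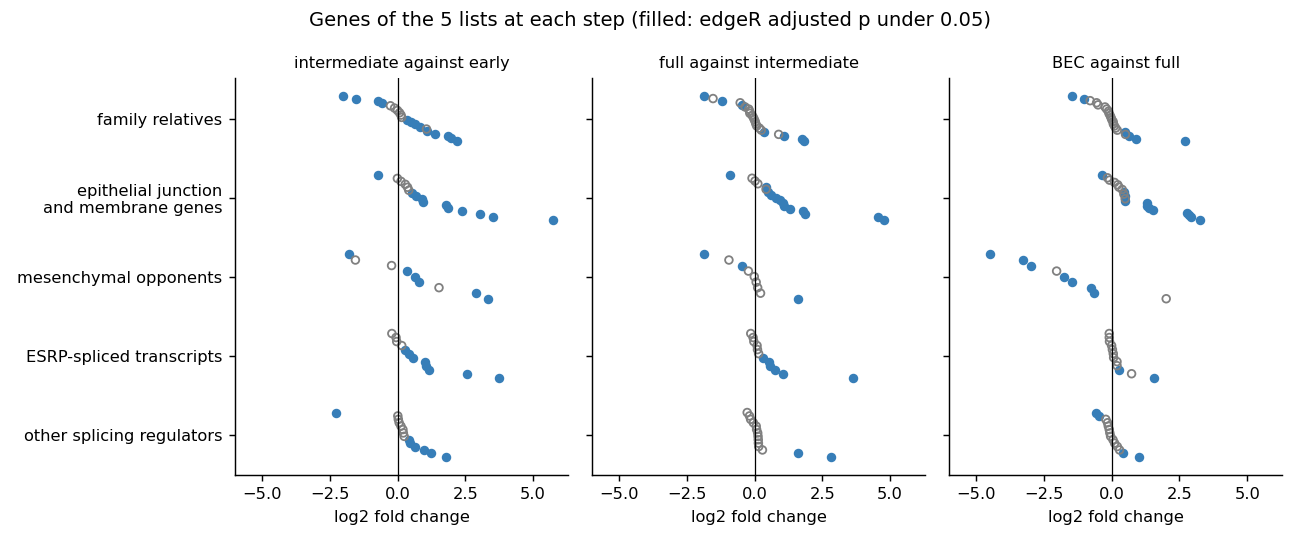
Log2 fold change of each tested gene of the 5 lists at the 3 steps; filled points have an edgeR adjusted p under 0.05, and genes with a group at the floor are left out. Junction genes lie mostly to the right at each step, and mesenchymal genes lie mostly to the left between BEC and full, down to -4.49 for Vim.

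Markers of other cells were summed in each library beside these results. B cell and T and NK cell markers were at or under the floor in early, intermediate and full, and 2 of 4 B cell markers rose above it in a BEC library. The summed level of 7 macrophage markers was 23.6 to 24.1 CPM in early, 29.9 to 36.6 in intermediate, 64.5 to 89.0 in full and 132 to 148 in BEC. Csf1r alone gave 120 to 133 CPM of the BEC sum, and C1qa, C1qb, Lyz2, Clec4f, Cd68 and Adgre1 the rest. The 5 mesothelial markers summed to 1.32 to 6.73 CPM in early and intermediate, 20.4 to 30.7 in full and 188 to 214 in BEC, of which Msln gave 187 to 212 CPM in BEC while Upk3b was at most 0.978 and Wt1 at most 0.626. Stellate cell and fibroblast sums were 53.2 to 177 CPM in early, 26.6 to 105 in intermediate, 25.2 to 43.4 in full and 45.1 to 78.3 in BEC. They were thus higher in BEC than in full without overlap. Endothelial sums were 13.4 to 19.9 CPM in early and 1.16 to 5.85 in BEC, and erythroid sums 18.7 to 32.9 and 0.385 to 1.23. The erythroid sum was nearly all Alas2, since the globins Hba-a1 and Hbb-bs were at or under the floor in every library. Neutrophil sums were at most 0.637 CPM in any library. The part of macrophage, mesothelial, and stellate cell and fibroblast transcripts in the higher level of the 6 genes in BEC than in full was not tested.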

How the data were processed

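Gene expression was measured by RNA-seq in 12 libraries of sorted mouse liver cells, 3 in each of 4 groups set by the labels. Whole-number counts per gene symbol were deposited by the authors, with STAR 2.7.10b, featureCounts 2.0.1, DESeq2 and build GRCm39 listed in the submitters' processing notes. Their roles, the annotation and the strandedness were not given in the sources used here. A second deposited table of normalized signal equals the authors' counts divided by 1 size factor per library, and was used only for that check.

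The members and all gene lists were chosen with earlier results of these data known. Counts were fitted for all 12 libraries with edgeR 4.0.16 in R 4.3.3 (TMM factors, filterByExpr, quasi-likelihood test, no block), which left 16210 genes, with Benjamini-Hochberg adjustment over all of them and a threshold of 0.05. Log2 changes of genes with a group at the floor of 3 counts per library are given as bounds against the highest floor of that group. Values at that floor cover counting error only, and PCR copies are not independent molecules. Tables and plots were made with Python 3.11.15, pandas 2.3.3 and matplotlib 3.10.9, and the fit was tested on simulated data. DESeq2 1.42.0, other scalings and filters, a replicate block, fits on 6 libraries and leaving out each library were the alternatives.

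Named from the lists were Grhl3, Ovol1, Elf5, Spdef, Klf4, Klf6, Cdh1, Cldn4, Rab25, Zeb1, Zeb2, Vim, Fgfr2, Cd44 and Rbm47. In each list and step, up to 4 called genes per direction with the largest change and at least 10 CPM could be added; 1 gene that this rule and the likeness measure name is not reported here. Replicate numbers in the labels may pair the libraries. Deviations from the group mean correlated between same-numbered libraries by 0.12 to 0.29 for intermediate and early. The range was 0.14 to 0.32 for full and intermediate and 0.17 to 0.26 for BEC and full. Libraries with different numbers were not compared in this way. The main fit leaves such pairing out, and the replicate block was run as an alternative only. What the number marks is not stated.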

Additional observations from a re-analysis of the deposited data

How the results depend on the processing

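From each stage to the next, no member's log2 change turned under any alternative. Between BEC and early, Grhl1 did turn, from 8.21 against 9.36 CPM (overlapping) to 9.89 against 6.17 with total counts only, and so did the summed Esrp level per kilobase, from 43.9 against 46.9 to 52.8 against 30.95. Of the counts over genes or lists recomputed under another scaling, floor, filter, tool or block, 130 stayed within 1.5 times the reported count and 4 did not. These were the other splicing regulators, with 14 called at the first step under total counts only, and at the second step 8 under total counts only, 1 with the filter at a mean of 50 counts and 4 with the replicate block. The block changed no other total beyond that range, but by direction 0 became 1 for mesenchymal genes higher in BEC than in full, for ESRP-spliced transcripts lower at the first step and for other splicing regulators lower at the second. Leaving out 1 library gave between 1 and 3 called ESRP-spliced transcripts for BEC against full (2 reported). Among the list genes, Klf4 at the second step was 0.0234 and Klf9 at the first 0.10 with total counts only, and Rbm47 at the first was -0.0240 with median-of-ratios factors and -0.0242 with DESeq2. Leaving out 1 library gave -0.0228 to 0.105 for Rbm47 at the first step, -0.00859 to 0.110 at the second, and -0.0906 to 2.64 for Ovol1 at the second. Depth limits Ovol2 in intermediate, at 5 or 6 counts, and with a floor of 10 counts it would not be counted as present there. Grhl2 and Esrp1 in early and intermediate cannot be told from any level under the floor.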
